A study of Mus musculus with 8 samples.

Results

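The effect of pressure overload that wild-type (WT) and fat-1 transgenic hearts had in common was examined in all 8 libraries of the series, 4 from mice with transverse aortic constriction (TAC) and 4 from mice with a Sham operation. Each surgery held 2 WT libraries (strain label C57BL/6) and 2 fat-1 libraries (strain label Fat-1), so the Sham groups were WT-Sham and Fat1-Sham and the constricted ones WT-TAC and Fat1-TAC. Genotype was a covariate, and WT-TAC1 stands for replicate 1 of WT-TAC. TAC narrows the aortic arch with a suture, the Sham mice underwent the chest opening without the constriction, and hearts were taken 8 weeks after surgery, which was done on littermates aged 3 months. The fat-1 transgene encodes an n-3 fatty acid desaturase of C. elegans that converts n-6 into n-3 polyunsaturated fatty acids. Its promoter is not given in the sources used here, and both surgeries carried it in the Fat1 groups. The labels name ventricular tissue and the study's methods name whole hearts. The labels call both libraries of a group independent samples, without naming a mouse for each.

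A gene was tested when it reached 1 FPKM (fragments scaled to transcript length and to library depth) in at least 4 of the 8 libraries, and 13222 of 25929 listed genes did so. For each of them the data answered whether all 4 TAC values lay on one side of all 4 Sham values, and whether it passed the cutoffs of the study (adjusted p under 0.1 together with more than 1.5-fold). All differences below are TAC minus Sham on the log2(FPKM + 1) scale, with standard errors (SE) from limma, and this scale understates the change of genes with low FPKM. Where 4 values of a gene are given for a surgery, they are the 2 WT replicates followed by the 2 Fat1 replicates.

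Constriction of the aorta raises the load on the left ventricle, and cardiomyocytes answer by growth. The adult mouse ventricle contracts mainly with the alpha myosin heavy chain (Myh6), and re-expression of the fetal beta chain (Myh7) and of natriuretic peptides (Nppa, Nppb) is the classical transcriptional sign of load. Fibroblasts deposit collagen, fuel use shifts away from fatty acids, and immune cells take part. The heart also runs its own circadian clock, in which ARNTL and CLOCK bind E-boxes and drive Per, Cry, Nr1d and the PAR bZIP genes Dbp, Hlf and Tef, whose products feed back on it.

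With all 8 libraries, 0 of 13222 genes (0%) passed the cutoffs, the smallest adjusted p being 0.325. Without a correction for multiple testing, 679 genes were higher and 61 were lower at p under 0.05 and over 1.5-fold, and limma-voom on recovered fragments also called 0. The 4 TAC values lay above the 4 Sham values for 1039 genes (7.86%) and below them for 205 genes (1.55%), of which 35 and 2 had passed the filter through a single surgery. WT-TAC1 stood apart from every other library: it scored 102.8 on the first principal component, which held 70.2% of the variance, against -31.5 to 16.5 in the others, and its median FPKM was 2.61 against 0.823 to 1.58. Depth was 14163994 to 21218331 fragments per library and did not single it out, with 19828559 fragments. Among the markers of other cell types, thymocyte genes summed to 1819 FPKM in WT-TAC1 and 1.16 to 3.54 FPKM elsewhere, skeletal muscle genes to 147.5 FPKM against 2.31 to 7.19 FPKM, and cardiomyocyte genes to 31540 FPKM against 57390 to 74070 FPKM. Airway genes summed to 1561 FPKM in WT-TAC1 and 4076 FPKM in WT-TAC2, against 15.8 to 71.4 FPKM in the other 6, and B and plasma cell genes to 1055, 529.9 and 515 FPKM in WT-TAC1, WT-TAC2 and Fat1-TAC2, against 12.9 to 20.2 FPKM. The part of these markers in the results was not tested, and the leading results are also given without WT-TAC1. That fit keeps WT-TAC2 as the only WT-TAC library, so the WT response has no replicate in it. WT-TAC2 itself holds the raised airway markers and raised B and plasma cell markers.

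**Figure D1:**
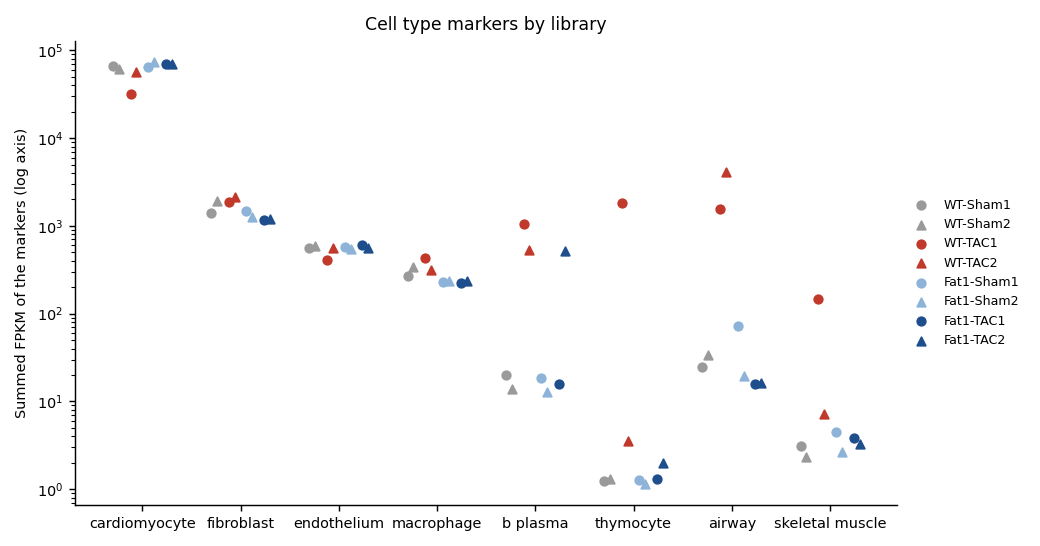
Summed FPKM of the markers of 8 cell types in each of the 8 libraries, on a log axis; circles are replicate 1 and triangles replicate 2. Thymocyte and skeletal muscle markers stand out in WT-TAC1 alone (1819 and 147.5 FPKM), airway markers in both WT-TAC libraries and B and plasma cell markers in 3 of the 4 TAC libraries.

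Without WT-TAC1, 51 genes (0.386%) rose and 7 (0.0529%) fell past the cutoffs, and all 58 had the same sign with 8 libraries. Of the 58, 46 also kept the 4 TAC values on one side of the 4 Sham values. Both fits share all libraries but WT-TAC1, so this agreement is no separate check. The median change over all genes was 0.19 with 8 libraries, 0.36 in WT and 0.02 in Fat1, and it was 0.01 once the libraries had been scaled by the median of ratios. This scaling moved the split as well: 702 genes (5.31%) then had all TAC values above and 661 (5%) all below, so that the share of higher genes went from 83.5% to 51.5%, and quantile normalization gave 585 and 657. Under FPKM as deposited and both scalings, 355 genes (2.68%) lay above and 147 (1.11%) below. Changes are therefore to be read relative to the median of 0.19.

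**Figure D2:**
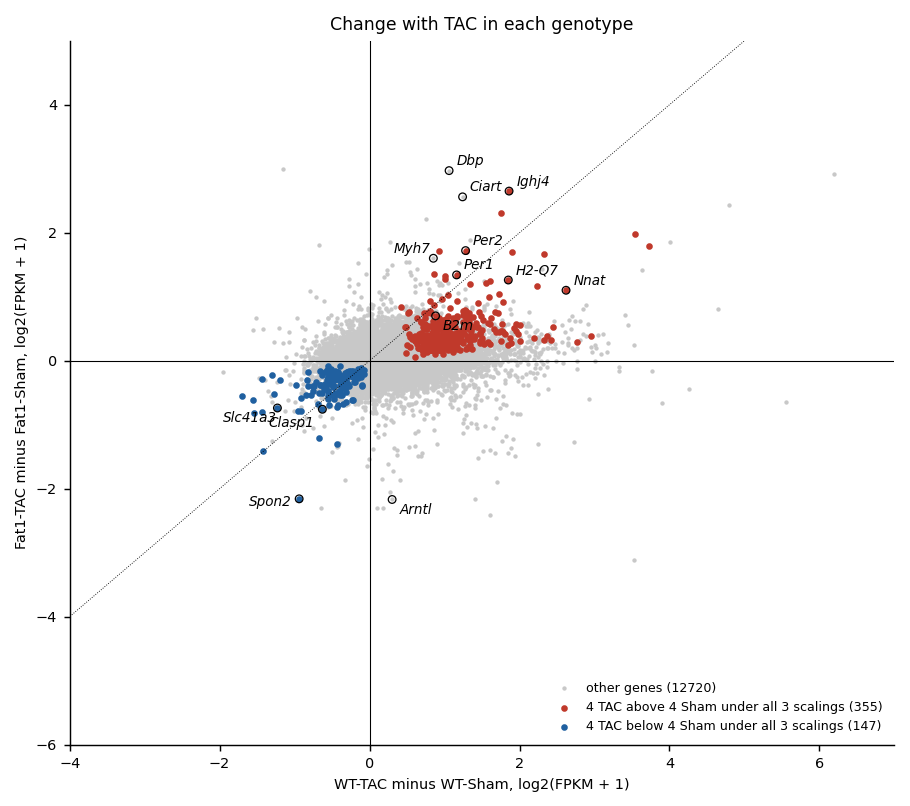
Change with TAC in WT (horizontal axis) and in Fat1 (vertical axis) for the 13222 genes tested, as differences of log2(FPKM + 1) means; the dotted line marks equal change. Red points are the 355 genes with all TAC values above all Sham values under the 3 scalings, blue points the 147 below, and named genes are ringed; Per1 (1.16 in WT, 1.34 in Fat1) lies near the dotted line.

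In FPKM as deposited, the circadian clock had the largest share of members apart between the surgeries among the 19 process lists. Of 18 clock genes tested, 7 (Per1, Per2, Ciart, Dbp, Hlf, Nr1d2 and Bhlhe41) had all TAC values above all Sham values and 2 (Clock and Nfil3) had all below, beside 7.86% and 1.55% of all genes. The median change of the list was 0.64 against 0.19 for all genes, with 0.68 in WT and 0.71 in Fat1. Without WT-TAC1 the counts were 7 and 4, and 7 clock genes rose (Per1, Per2, Ciart, Dbp, Hlf, Tef and Nr1d2) and 1 fell (Arntl) past the cutoffs. Leaving out a library cannot lower a count of genes apart, and without WT-TAC1 all genes had 1304 above and 341 below. Scaling by the median of ratios left 2 above, Per1 and Per2, and the same 2 below, a smaller share than the 5 of 17 heat shock genes below under that scaling. The hour at which hearts were collected is not given in the sources used here.

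Because the higher clock genes are known targets of ARNTL and CLOCK through the E-box, their promoter windows were searched for the letters CACGTG, which read the same on both strands, in 250 bases before to 50 bases after the start in RefSeq (GRCm38.p6). Windows were given for 15 of the 18 clock genes, 20 windows in all, and 6 of them (30%), in 5 genes, held the motif, against 2349 of 32851 windows (7.15%) over all genes. The motif was in the windows of some of the higher genes only, namely Ciart, Per1, Tef and Bhlhe41. The windows of Dbp, Hlf, Nr1d2 and Per3 held no E-box, and Per2 had no window. The window of Cry1, whose groups overlapped, did hold the motif. Those of Clock and Nfil3, lower in every TAC heart, and of Arntl and Npas2, lower except in WT-TAC1, held none. The windows of Cry2 and Nr1d1 held none either. The D-box letters TTATGNAA, searched on both strands and known as the site of DBP, HLF, TEF and NFIL3, were in the windows of Per1 and Per3, 2 of 20 (10%), against 3.38% of all windows. The letters AGGTCA, the core of the site of the NR1D and ROR receptors, were in 5 of 20 (25%) against 16.3%. The windows of 4 genes follow, chosen because they hold E-boxes and their genes were higher after TAC, Tef with groups that overlapped by little. E-boxes are in capitals: Ciart at chr3:95882179-95882478 (minus strand), Per1 at chr11:69098699-69098998 (plus strand), Tef at chr15:81802423-81802722 (plus strand) and Bhlhe41 at chr6:145865371-145865670 (minus strand).
Ciart: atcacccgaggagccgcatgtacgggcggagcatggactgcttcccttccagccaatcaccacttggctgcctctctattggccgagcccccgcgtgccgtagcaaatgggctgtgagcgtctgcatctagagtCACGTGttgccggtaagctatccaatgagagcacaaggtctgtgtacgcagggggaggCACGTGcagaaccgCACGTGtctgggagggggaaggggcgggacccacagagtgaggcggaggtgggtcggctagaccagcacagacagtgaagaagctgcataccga
Per1: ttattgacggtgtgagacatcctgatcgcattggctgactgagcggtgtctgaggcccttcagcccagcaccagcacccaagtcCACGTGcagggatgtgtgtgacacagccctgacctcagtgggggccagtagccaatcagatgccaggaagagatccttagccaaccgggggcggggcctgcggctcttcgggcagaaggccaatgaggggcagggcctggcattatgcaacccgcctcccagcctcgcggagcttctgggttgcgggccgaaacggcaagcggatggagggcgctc
Tef: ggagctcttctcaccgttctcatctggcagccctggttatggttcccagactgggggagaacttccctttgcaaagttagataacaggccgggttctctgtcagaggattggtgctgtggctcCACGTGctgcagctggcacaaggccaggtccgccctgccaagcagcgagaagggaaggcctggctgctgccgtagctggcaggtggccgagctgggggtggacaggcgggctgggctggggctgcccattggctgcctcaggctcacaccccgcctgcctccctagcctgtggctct
Bhlhe41: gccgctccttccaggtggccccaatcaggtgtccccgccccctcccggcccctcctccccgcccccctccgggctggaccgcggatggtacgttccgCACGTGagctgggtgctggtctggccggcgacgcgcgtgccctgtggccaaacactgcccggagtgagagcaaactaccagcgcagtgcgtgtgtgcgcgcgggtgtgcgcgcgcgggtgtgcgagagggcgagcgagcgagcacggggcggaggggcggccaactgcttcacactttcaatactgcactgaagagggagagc
The window of Ciart holds 3 E-boxes, which begin 116, 58 and 44 bases before the start. That of Per1 holds 1, beginning 166 bases before the start, and a D-box 24 bases before it. A match of letters is a description of these windows, and binding was not measured here.

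Per1 and Per2 encode the period proteins, which repress ARNTL and CLOCK. Per1 was at 8.48, 13.0, 9.68 and 10.8 FPKM in Sham and at 21.2, 29.0, 25.5 and 29.6 FPKM in TAC. Every TAC heart exceeded every Sham heart, and the groups stayed apart under all 3 scalings. The difference was 1.25 ± 0.17 (adjusted p = 0.325 with 8 libraries) and 1.36 ± 0.14 without WT-TAC1 (adjusted p = 0.0233). Per2 was at 5.96, 8.46, 2.84 and 2.31 FPKM in Sham and at 14.9, 23.5, 9.04 and 12.7 FPKM in TAC. The genotypes differed in level, with both Fat1-Sham libraries below both WT-Sham libraries, and TAC lay above Sham in each, by 1.28 ± 0.30 in WT and 1.72 ± 0.30 in Fat1. Without WT-TAC1 the difference was 1.67 ± 0.16 (adjusted p = 0.0233). Per3, the third period gene, was at 4.36, 13.0, 4.56 and 2.93 FPKM in Sham and 16.3, 26.8, 12.8 and 20.5 FPKM in TAC, where Fat1-TAC1 lay just under WT-Sham2.

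Ciart, a repressor of the ARNTL and CLOCK pair, was at 3.96, 10.5, 2.50 and 2.54 FPKM in Sham and at 13.6, 20.6, 22.8 and 17.2 FPKM in TAC. The difference was 1.90 ± 0.36, and 2.14 ± 0.32 without WT-TAC1 (adjusted p = 0.0729). Dbp, a transcription factor whose level follows the clock closely, was at 23.9, 62.8, 15.4 and 8.66 FPKM in Sham and at 65.3, 103.9, 97.0 and 97.8 FPKM in TAC. WT-Sham2 came close to WT-TAC1, while the Fat1 groups were far apart, with a difference of 1.06 ± 0.46 in WT and 2.97 ± 0.46 in Fat1. The test of that difference between genotypes gave an unadjusted p of 0.0207 and an adjusted p of 0.4996. Hlf was at 11.0, 18.6, 9.70 and 7.75 FPKM in Sham and at 23.1, 35.2, 18.7 and 24.7 FPKM in TAC. The lowest TAC value exceeded the highest Sham value by little, and the separation was lost under both scalings. Tef reached 73.6 to 159.0 FPKM in Sham and 158.2 to 255.7 FPKM in TAC, so its groups overlapped, Fat1-TAC1 lying just under WT-Sham2. Its difference was 1.09 ± 0.18 without WT-TAC1. Nr1d2 and Bhlhe41, repressors at the ROR site and the E-box, were at 38.7 to 71.3 and 6.19 to 11.3 FPKM in Sham and at 79.8 to 97.9 and 11.7 to 14.4 FPKM in TAC.

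The activators of the clock lay in the opposite direction. Arntl was at 3.58, 1.96, 6.58 and 7.23 FPKM in Sham and at 13.2, 0.446, 0.979 and 0.546 FPKM in TAC. All TAC hearts except WT-TAC1 lay below all Sham hearts, and WT-TAC1 was the highest of the 8. The difference was -0.94 ± 0.74 with 8 libraries and -1.84 ± 0.23 without WT-TAC1 (adjusted p = 0.0438). Npas2, a partner of ARNTL that can stand in for CLOCK, was also below all Sham values in every TAC heart except WT-TAC1, with 0.926 to 3.25 FPKM in Sham, 1.81 FPKM in WT-TAC1 and 0.611 to 0.923 FPKM in the other TAC libraries. Clock was at 11.7, 9.999, 13.6 and 13.7 FPKM in Sham and at 8.84, 8.10, 8.56 and 8.24 FPKM in TAC, WT-TAC1 included, and stayed apart under all 3 scalings, with a difference of -0.48 ± 0.14 (adjusted p = 0.415). Nfil3, which competes with DBP at the D-box, was at 3.51 to 8.73 FPKM in Sham and at 2.14 to 2.86 FPKM in TAC, also apart under the 3 scalings. The remaining members had overlapping groups: Cry1, a repressor, was at 5.97 to 12.2 FPKM in Sham and 6.09 to 35.6 FPKM in TAC, Cry2 at 11.3 to 18.8 and 18.2 to 24.2 FPKM, and Nr1d1 at 33.7 to 51.8 and 40.8 to 57.2 FPKM.

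**Figure D3:**
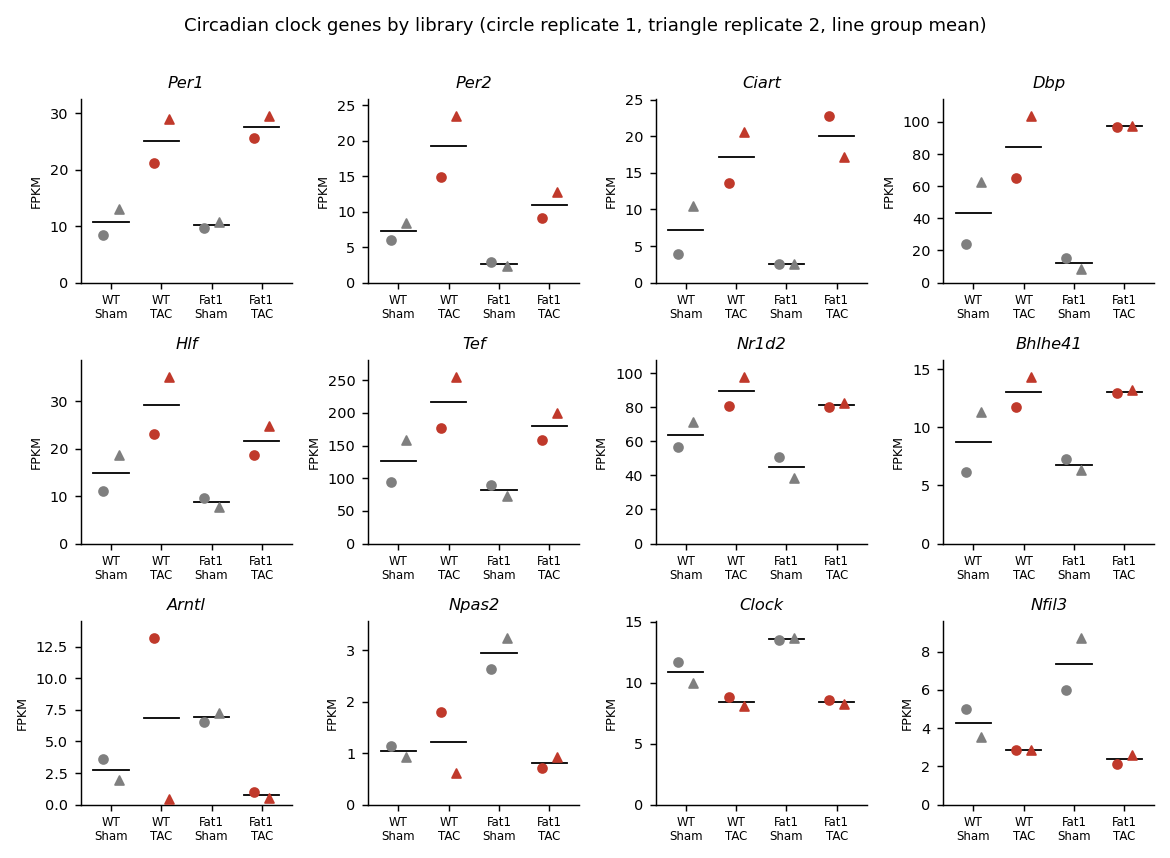
FPKM of 12 clock genes by group (grey Sham, red TAC, circle replicate 1, triangle replicate 2, black line group mean; each axis starts at 0). The 8 genes of the upper rows are higher in TAC in both genotypes, and the 4 of the lowest row are lower in TAC apart from WT-TAC1 for Arntl (13.2 FPKM) and Npas2 (1.81 FPKM).

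Most genes of antigen presentation on major histocompatibility complex (MHC) class I were also above Sham in every TAC heart. This group was formed after its values were seen, so its count is a description, from the 13 class I genes tested and B2m, the light chain that all class I molecules share. With 8 libraries, 9 of these 14 genes had all TAC values above all Sham values and 0 below (7.86% and 1.55% of all genes). Leaving out WT-TAC1 could not lower that count, so the 9 and 0 found then are no check. In that setting 1304 of 13222 genes lay above and 341 below. The median change of the 14 genes was 0.81 with 8 libraries and 0.54 without WT-TAC1, against 0.19 and 0.09 for all genes. H2-Q7 was at 4.61, 5.88, 6.52 and 4.63 FPKM in Sham and at 35.3, 12.8, 13.3 and 15.9 FPKM in TAC. WT-TAC1 was highest, and the other TAC hearts were still all above Sham, with a difference of 1.55 ± 0.31, and 1.21 ± 0.14 without WT-TAC1 (adjusted p = 0.039). H2-Q6 was at 9.14 to 16.5 FPKM in Sham and 25.2 to 55.2 FPKM in TAC, and H2-Q5 at 4.75 to 6.75 and 11.6 to 21.6 FPKM. Both rose without WT-TAC1, by 1.14 ± 0.20 and 1.09 ± 0.15 (adjusted p = 0.0938 and 0.0592). The H2-Q genes are near-identical copies, so their reads could be split among them in more than one way. The gene annotation lists H2-Q5 as a polymorphic pseudogene. Some H2 genes outside class I also lay above Sham in every TAC heart. Of all 18 H2 genes tested, in class I or not, 10 lay above Sham in every TAC heart and 0 below. Their median was 0.95 with 8 libraries, 0.60 without WT-TAC1 and 0.40 without both WT-TAC libraries.

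The classical class I heavy chain H2-K1 was at 167.4, 201.0, 190.8 and 142.6 FPKM in Sham and at 582.2, 327.7, 224.3 and 281.0 FPKM in TAC. B2m was at 262.1, 300.7, 235.8 and 230.4 FPKM in Sham and at 722.9, 368.5, 352.6 and 405.1 FPKM in TAC. Both lay apart under all 3 scalings, by 0.93 ± 0.23 and 0.79 ± 0.20 (adjusted p = 0.412 and 0.415), and without WT-TAC1 by 0.70 ± 0.14 and 0.57 ± 0.10 (adjusted p = 0.112 and 0.09, B2m being under 1.5-fold). Nlrc5, the transactivator of class I genes, was at 2.31 to 3.51 FPKM in Sham and 4.83, 5.31, 6.26 and 17.8 FPKM in TAC. Tap1, a peptide transporter, was at 5.98 to 6.86 FPKM in Sham and 8.68 to 35.6 FPKM in TAC, and Psmb8, an immunoproteasome subunit, at 4.43 to 5.08 and 6.53 to 50.2 FPKM. The 9 class I genes were counted for lying above Sham in every TAC library, so Fat1-TAC1 was above Sham for them by selection. In Fat1-TAC1 the B and plasma cell markers summed to 15.7 FPKM, the thymocyte markers to 1.31 FPKM and the macrophage markers to 225.9 FPKM. The Sham libraries were at 12.9 to 20.2, 1.16 to 1.31 and 226.6 to 337.7 FPKM. The part of immune cells was not tested. Joining segments and variable regions of immunoglobulins moved with the B cell markers in part: Ighj4 was at 3.92, 0.873, 1.04 and 0 FPKM in Sham and at 15.9, 6.19, 6.94 and 9.18 FPKM in TAC, so it was above Sham in Fat1-TAC1 too. Igkj5 was listed at 0 in all 4 Sham libraries and at 17.6, 8.35, 1.34 and 4.13 FPKM in TAC, and it passed the filter through TAC alone. Such short segments share sequence and their values are uncertain.

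Among the 13 hypertrophy genes tested, 1 (Myh7) lay above and 1 (Rcan1) below in every TAC heart, beside 7.86% and 1.55% of all genes, and 0 did on either side after scaling by the median of ratios. The median change was -0.14. Myh7 was at 28.9, 47.3, 31.1 and 30.5 FPKM in Sham and at 50.7, 89.0, 76.0 and 119.6 FPKM in TAC. All TAC hearts were higher, with WT-TAC1 only just above WT-Sham2, and the order was lost under both scalings. The difference was 1.22 ± 0.27 (adjusted p = 0.327), 0.85 ± 0.35 in WT and 1.60 ± 0.35 in Fat1, and 1.46 ± 0.20 without WT-TAC1 (adjusted p = 0.0667). Myh6 was at 13400 to 17690 FPKM in Sham and 7406 to 13330 FPKM in TAC, lower in every TAC heart as deposited by -0.46 ± 0.28 (adjusted p = 0.427), so that Myh7 remained a small fraction of Myh6 in level in all libraries. Mhrt, a noncoding transcript antisense to Myh7, and Mir208b, inside an intron of Myh7, followed the same pattern without WT-TAC1 (1.04 ± 0.16 and 1.18 ± 0.19, adjusted p = 0.0748 and 0.0786). Strand in the counting is not given in the sources used here, so reads of Myh7, Mhrt and the miRNA host cannot be told apart. Myh7b, a related slow myosin on another chromosome, was at 32.0, 24.1, 28.04 and 26.9 FPKM in Sham and at 19.9, 41.3, 50.1 and 52.1 FPKM in TAC. WT-TAC1 was lowest of the 8 and the other TAC hearts were highest, and Myh7b rose by 0.75 ± 0.12 without WT-TAC1 (adjusted p = 0.0786).

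The natriuretic peptides did not separate the surgeries. Nppa was at 105.7, 259.0, 128.4 and 9.04 FPKM in Sham and at 299.4, 241.4, 13.6 and 11.2 FPKM in TAC. Low and high values occurred in both surgeries, and the atrial markers, Nppa among them, summed to 1150, 4139, 1517 and 74.1 FPKM in Sham and 2686, 2703, 96.8 and 75.2 FPKM in TAC, in the same libraries; their part in the result was not tested. Nppb was at 174.7 to 417.9 FPKM in Sham and 177.5 to 264.3 FPKM in TAC, with a difference of -0.43 ± 0.20 (adjusted p = 0.415). The skeletal actin Acta1 reached 109.0 to 325.9 FPKM in Sham and 137.6 to 421.3 FPKM in TAC. Rcan1, an inhibitor of calcineurin whose transcript calcineurin itself induces, was at 43.2, 31.7, 42.8 and 58.4 FPKM in Sham and at 20.1, 26.7, 26.9 and 31.6 FPKM in TAC. Every TAC heart was lower, by -0.70 ± 0.16 (adjusted p = 0.39) and by -0.64 ± 0.15 without WT-TAC1 (adjusted p = 0.142), though Fat1-TAC2 and WT-Sham2 nearly met.

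Few other genes of the cardiomyocyte were lower in every TAC heart. Of 20 sarcomere genes, 2 (Myh6 and Des) lay below and 1 (Myh7) above; of 15 calcium handling genes, 2 (Hrc and Atp2a2) lay below; and of 20 ion channel genes, 1 (Kcnd2) lay below, where 1.55% of all genes did. Only Kcnd2 among these was apart under all 3 scalings, since Myh6, Des, Atp2a2 and Hrc overlapped after quantile normalization. Their medians were -0.21, -0.20 and -0.23 with 8 libraries, -0.49, -0.40 and -0.34 in WT, -0.01, -0.07 and -0.20 in Fat1, and the medians without WT-TAC1 were 0.01, 0.01 and -0.10. The cardiomyocyte markers had a median of -0.55 in WT and 0.08 in Fat1. Most of these markers are also members of the sarcomere list, and Ryr2 is in the calcium list, so they are no separate reading. In bulk tissue fewer cardiomyocytes and less RNA per cardiomyocyte cannot be told apart. Mypn, a protein of the Z-disc, was at 33.7, 29.5, 34.3 and 45.2 FPKM in Sham and at 15.2, 26.8, 23.9 and 28.1 FPKM in TAC. The difference was close in the genotypes, -0.62 ± 0.28 in WT and -0.58 ± 0.28 in Fat1, and it was -0.44 ± 0.13 without WT-TAC1. Tcap, the titin cap, overlapped between the surgeries and differed by 0.19 ± 0.32 in WT and 1.31 ± 0.32 in Fat1.

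**Figure D4:**
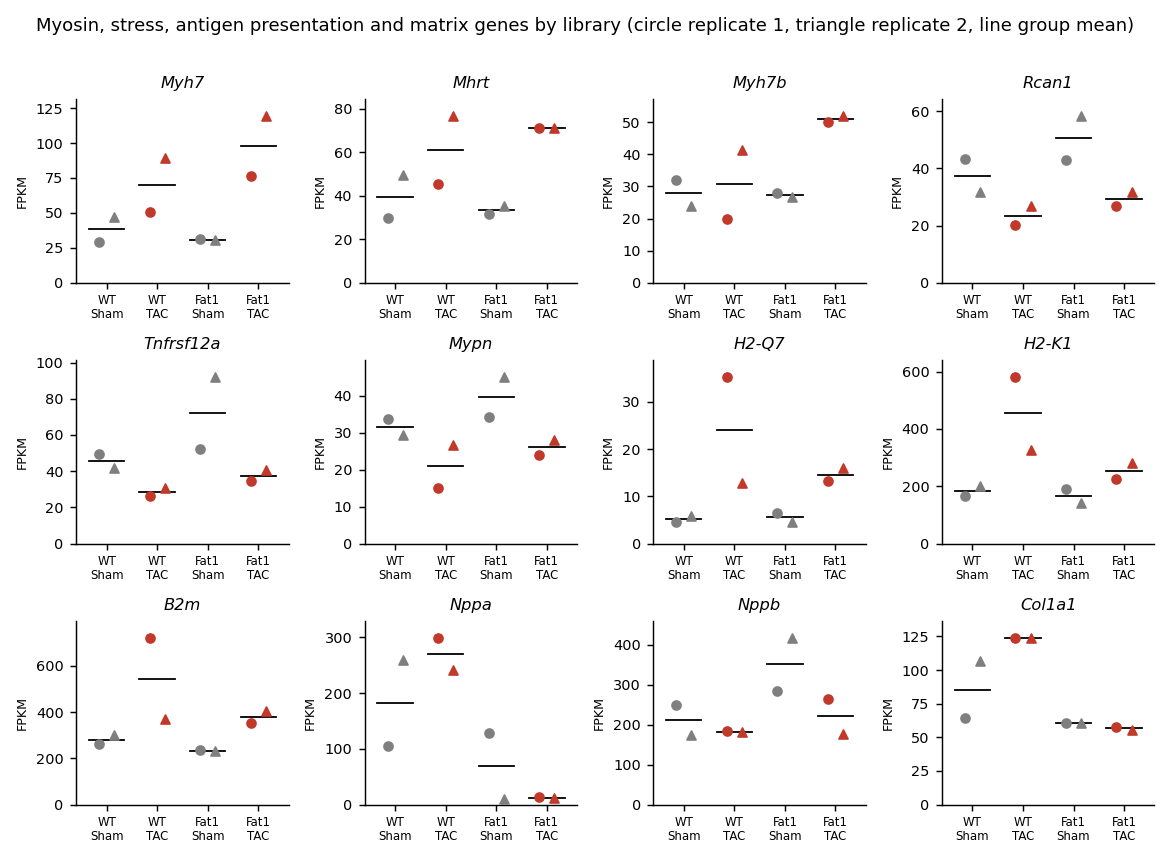
FPKM of 12 genes by group, drawn as for the clock genes (grey Sham, red TAC, circle replicate 1, triangle replicate 2, black line group mean; each axis starts at 0). Myh7, H2-Q7, H2-K1 and B2m lie higher and Rcan1, Tnfrsf12a and Mypn lower in every TAC library, while Nppa (9.04 to 299.4 FPKM) and Nppb overlap and Col1a1 is higher in WT-TAC only.

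Of the 12 genes with the largest shared decrease, several belong to the cardiomyocyte. Slc41a3, a magnesium transporter of mitochondria, was at 25.0, 25.9, 33.6 and 30.7 FPKM in Sham and at 7.69, 13.6, 22.2 and 15.8 FPKM in TAC. It was lower in every TAC heart under all 3 scalings and fell by 0.79 ± 0.12 without WT-TAC1 (adjusted p = 0.0756). Popdc3, a membrane protein of muscle that binds cAMP, was at 15.9 to 23.6 FPKM in Sham and 6.46 to 14.1 FPKM in TAC. Akap1, which anchors protein kinase A at mitochondria, was at 58.8 to 81.6 and 34.7 to 53.4 FPKM. Lmcd1, a LIM protein that acts in cardiac hypertrophy, was at 18.7 to 29.4 and 10.2 to 17.6 FPKM, and Fitm2, which takes part in lipid droplet formation, at 44.8 to 59.7 and 25.2 to 40.8 FPKM. Each of these 5 was apart under all 3 scalings, with adjusted p values of 0.325 to 0.415.

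Clasp1, which stabilizes microtubules, was at 89.4, 81.4, 111.2 and 129.8 FPKM in Sham and at 45.4, 65.6, 65.6 and 75.7 FPKM in TAC, a difference of -0.63 ± 0.20 in WT and -0.76 ± 0.20 in Fat1, and -0.61 ± 0.11 without WT-TAC1 (adjusted p = 0.1075). Tnfrsf12a, the receptor of the cytokine TWEAK, was at 49.5, 41.8, 52.0 and 92.2 FPKM in Sham and at 26.2, 30.6, 34.5 and 40.6 FPKM in TAC, separated as deposited only. The mitochondrial ribosomal RNA mt-Rnr2 (157.1, 74.8, 112.4 and 91.6 FPKM in Sham, 42.3, 72.8, 66.7 and 51.0 FPKM in TAC) and the pseudogene Rps2-ps10 were also among the 12, and both share sequence with other copies. Spon2, a secreted matrix protein whose mean FPKM was below the limit of 5 set for the 12, was picked after its values were seen. It was at 4.98, 2.96, 7.86 and 8.11 FPKM in Sham and at 2.25, 0.972, 1.27 and 0.77 FPKM in TAC. All TAC hearts were lower under the 3 scalings, and without WT-TAC1 the gene fell by 1.82 ± 0.23 (adjusted p = 0.0438).

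Beyond clock and class I genes, 4 of the 12 genes with the largest shared increase were Nnat, Flt3l, Gstt2 and Ighj4. Nnat, a small membrane protein of the endoplasmic reticulum, was at 2.50, 3.28, 3.85 and 2.96 FPKM in Sham and at 35.9, 14.3, 3.98 and 16.8 FPKM in TAC, so that Fat1-TAC1 barely passed Fat1-Sham1. Flt3l, a cytokine for dendritic cell growth, was at 3.03, 6.28, 4.58 and 2.48 FPKM in Sham and at 18.6, 12.6, 8.22 and 7.35 FPKM in TAC. Gstt2, a glutathione transferase, was at 7.04, 11.3, 8.03 and 5.20 FPKM in Sham and at 20.5, 16.4, 13.6 and 13.4 FPKM in TAC, and its change was the same in WT (0.96 ± 0.28) and Fat1 (0.96 ± 0.28). These 3 lay apart under all 3 scalings, with adjusted p values of 0.325 (Flt3l and Gstt2) and 0.415 (Nnat), and without WT-TAC1 the differences of Flt3l, Gstt2 and Nnat were 1.13, 0.90 and 1.46.

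Several of the 51 genes that rose without WT-TAC1 are widely expressed, and those given here were picked after their values were seen. Nbeal1, a BEACH domain protein, was at 12.8, 13.2, 13.4 and 13.0 FPKM in Sham and at 21.2, 23.8, 22.8 and 22.5 FPKM in TAC. Its replicates were close in every group, WT-TAC1 included, and it rose by 0.77 ± 0.081 without WT-TAC1 (adjusted p = 0.0233). Cpeb1, which controls polyadenylation and translation, was at 10.9 to 15.7 FPKM in Sham and 19.3 to 26.7 FPKM in TAC, and Tle2, a corepressor, at 4.197 to 6.16 and 7.77 to 15.9 FPKM. The nuclear noncoding RNAs Malat1 and Neat1 were at 236.3 to 308.9 and 49.6 to 67.9 FPKM in Sham and at 388.2 to 581.1 and 77.6 to 93.3 FPKM in TAC. Rbm3, a cold-inducible RNA-binding protein, was at 30.1 to 45.2 FPKM in Sham and 52.5 to 189.3 FPKM in TAC. Klf2, a factor of the endothelium that responds to shear stress, was at 27.2, 23.3, 28.3 and 25.1 FPKM in Sham and at 27.5, 48.8, 87.3 and 72.2 FPKM in TAC. It lay within the Sham range in WT-TAC1 and rose by 1.29 ± 0.15 without it (adjusted p = 0.0333).

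Matrix genes showed little that the genotypes shared. Of 20 collagen and matrix genes, 0 lay above and 1 (Fbn1) below in every TAC heart, with a median of 0.05; of 23 genes of activated fibroblasts, 1 (Fap) lay above; and of 17 proteases and inhibitors, 1 (Plau) lay above and 1 (Serpinh1) below. The shares of all genes were 7.86% above and 1.55% below, so that the single members above were no more than that background. Col1a1, the main fibrillar collagen, was at 64.6 and 106.4 FPKM in WT-Sham against 124.1 and 123.5 FPKM in WT-TAC, and at 60.4 and 60.8 FPKM in Fat1-Sham against 57.7 and 55.5 FPKM in Fat1-TAC. The surgeries moved apart upward in WT and slightly downward in Fat1, a difference between genotypes of -0.67 (unadjusted p = 0.0706), and over both the change was 0.24 ± 0.19, or 0.17 ± 0.19 without WT-TAC1. Fbn1, the microfibril protein fibrillin-1, was at 11.8 to 16.0 FPKM in Sham and 8.32 to 10.5 FPKM in TAC. Serpinh1, the collagen chaperone of the endoplasmic reticulum, was at 202.6, 157.2, 149.6 and 193.4 FPKM in Sham and at 111.4, 147.4, 100 and 124.4 FPKM in TAC, a difference of -0.54 ± 0.15 (adjusted p = 0.415), or -0.47 ± 0.14 without WT-TAC1. Plau, the urokinase plasminogen activator, was at 2.43 to 2.91 FPKM in Sham and 3.85 to 9.26 FPKM in TAC. Fap, a protease of activated fibroblasts, was at 1.42 to 2.26 FPKM in Sham and 2.77 to 4.01 FPKM in TAC. Postn and Fn1, which activated fibroblasts secrete, overlapped between the surgeries, and the fibroblast markers summed to 1258 to 1927 FPKM in Sham and 1179 to 2155 FPKM in TAC.

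Lists of energy metabolism had negative medians, which were lower in WT than in Fat1. Of 73 respiratory chain genes encoded in the nucleus, 0 lay above and 10 below in every TAC heart, where 1.55% of all genes lay below, and 5 did after scaling by the median of ratios, where 5% of all genes did. Of the 73, 65 had a negative difference, whereas 24.6% of all genes did. Their median was -0.25, made up of -0.49 in WT and 0.01 in Fat1, and it was -0.07 without WT-TAC1. Leaving out a TAC library cannot lower the count of genes below, so the 10 without WT-TAC1 are no check. In that setting 341 of 13222 genes lay below. Ndufa8, a subunit of complex I, was at 408.7, 426.2, 413.7 and 473.4 FPKM in Sham and at 221.6, 341.4, 320.5 and 337.2 FPKM in TAC. It was lower in each TAC heart under all 3 scalings, by -0.60 in WT and -0.43 in Fat1. Tricarboxylic acid cycle genes (18 tested) had 3 below, Idh3a, Sdhb and Mdh2; fatty acid oxidation genes (19) had 2 below, Slc25a20 and Acadl; glycolysis genes (23) had 2 below, Aldoa and Ldha; and none of these lists had a member above. Of these, Idh3a and Slc25a20 were apart under all 3 scalings, and the medians of the 3 lists went from -0.22, -0.24 and -0.18 to -0.07, -0.04 and -0.07 without WT-TAC1. In fatty acid uptake and PPAR signaling, 1 of 22 genes, the lipoprotein lipase Lpl, lay below. Pdk4, the kinase that shuts pyruvate dehydrogenase during fatty acid use, was at 171.9, 225.6, 256.0 and 352.5 FPKM in Sham and at 69.9, 90.8, 195.6 and 80.7 FPKM in TAC, where only Fat1-TAC1 reached the Sham range. Its difference was -1.30 ± 0.40 in WT and -1.25 ± 0.40 in Fat1 (adjusted p = 0.325 over both), and -1.19 ± 0.28 without WT-TAC1 (adjusted p = 0.137). Ppargc1a, a coactivator of mitochondrial genes, was at 30.9 to 70.8 FPKM in Sham and 16.5 to 31.2 FPKM in TAC.

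The 13 mitochondrially encoded mRNAs had no member on one side, with a median of -0.75 in WT and 0.35 in Fat1. Their share of all FPKM was 25.7% ± 1.75 (SD, n = 4) in Sham and 22.2% ± 6.89 (SD, n = 4) in TAC, a difference of -3.48 percentage points (exact permutation test over 70 arrangements, two-sided, p = 0.486; the smallest p possible is 0.0286). Without WT-TAC1 the difference was -0.492 percentage points.

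**Figure D5:**
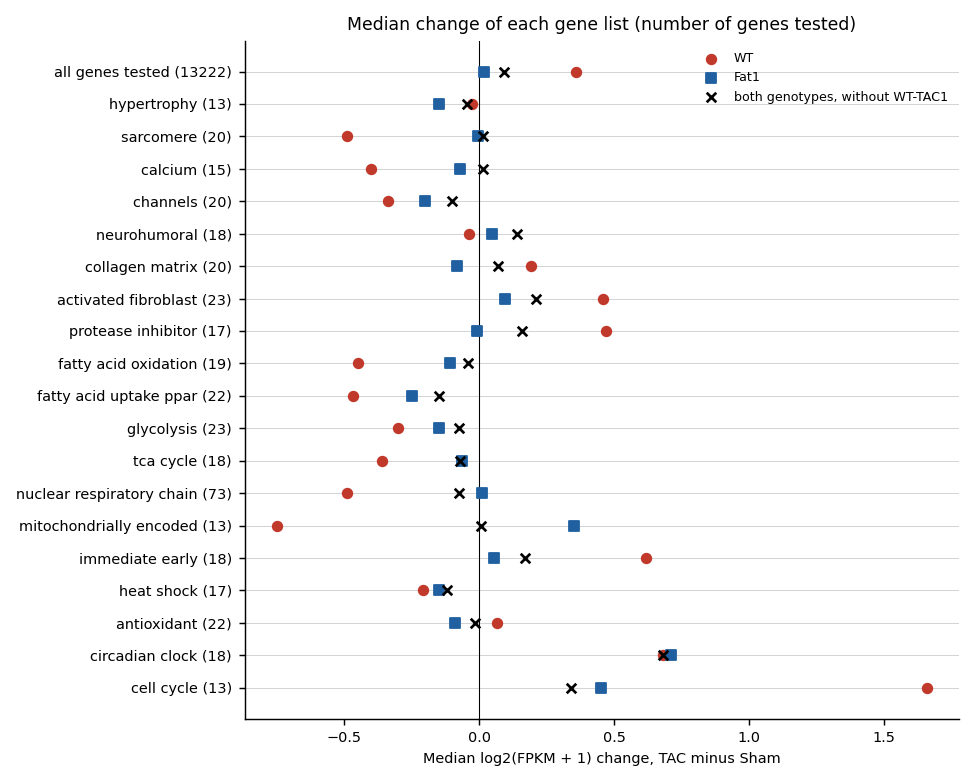
Median difference between TAC and Sham on the log2(FPKM + 1) scale for each of 19 gene lists and for all genes tested (red circles WT, blue squares Fat1, black crosses both genotypes without WT-TAC1; the number of genes tested is in parentheses). The clock genes have nearly the same median in the 3 readings (0.68, 0.71 and 0.68), whereas lists of the sarcomere and of energy metabolism are lower in WT than in Fat1.

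In FPKM as deposited, the remaining lists had few members apart. None of 18 neurohumoral genes, 18 immediate early genes and 22 antioxidant genes lay on one side in every TAC heart, with medians of 0.05, 0.39 and -0.06. Of 17 heat shock genes, 1 lay below, the small heat shock protein Hspb1 (252.4 to 340.9 FPKM in Sham, 133.4 to 241.1 FPKM in TAC), with 3 below without WT-TAC1 and 5 below under the median of ratios, where 5% of all genes were. Of 13 cell cycle genes, 3 lay above (Ccnd2, Mcm3 and Mcm5), with a median of 1.01, which was 0.34 without WT-TAC1. The topoisomerase Top2a was at 214.0 FPKM in WT-TAC1 and at 1.52 to 2.95 FPKM in the other 7 libraries, beside the thymocyte marker sum of 1819 FPKM in WT-TAC1. Ccnd2, a cyclin of the G1 phase, was at 55.5 to 67.6 FPKM in Sham and 76.9 to 90.0 FPKM in TAC, with 81.9 FPKM in WT-TAC1. The neutrophil genes S100a8 and S100a9 were at 3.20 to 17.6 and 3.05 to 16.2 FPKM in Sham and at 1.63 to 8.30 and 0.961 to 6.35 FPKM in TAC, with overlapping groups.

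Genotype by surgery was tested for every gene, and limma called 0 interactions (smallest adjusted p = 0.27) with 801 genes at an unadjusted p under 0.05, while limma-voom also called 0. A gene with all TAC values on one side changes the same way in both genotypes by selection. A lower share of small interaction p values among such genes is therefore built in and does not show a shared response. Among the genes with all TAC values on one side, 14 of 1039 higher and 5 of 205 lower genes were at an unadjusted interaction p under 0.05. Over all genes tested this held for 801 of 13222. Dbp, Nfil3 and Spon2 among them had the larger change in Fat1, whereas Igkj5 had the larger change in WT (3.72 against 1.79). Within WT, 3 genes rose past the cutoffs, Wfdc2, Cbr2 and Scgb3a1, by 4.26, 3.01 and 5.55 (adjusted p = 0.0485, 0.0679 and 0.0679), in the 2 libraries with the raised airway markers. Within Fat1, limma called 0 genes (smallest adjusted p = 0.969) and limma-voom also 0. The unadjusted p from limma was under 0.05 for 355 of 13222 genes in Fat1 and for 3563 in WT. A missing call does not show that the responses were alike.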

How the data were processed

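RNA was extracted from mouse hearts with TRIzol, libraries were prepared with the NEBNext Ultra kit and sequenced on an Illumina HiSeq. Per the labels, the submitters' processing notes name HISAT2 and the genome builds GRCm38 and mm10. The counting program, annotation and versions are not given in the sources used here. The authors deposited FPKM for 25929 genes (25852 with a symbol, 4 blank lines removed). For 100% of the genes one whole length turned all 8 FPKM into whole fragments (tolerance 0.02), which gave the depth per library. FPKM divide out depth and length, so abundant transcripts in a library lower the FPKM of its other genes.

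Genes reaching 1 FPKM in 4 or more libraries entered limma 3.58.1 (R 4.3.3; lmFit, trended eBayes) after a log2(FPKM + 1) transform, genotype and surgery being the terms, and an interaction fit gave the within-genotype differences. P-values weigh each difference against the spread between these libraries, which limma moderates across genes, with 2 libraries per group. They were adjusted by Benjamini-Hochberg over all genes tested. The fits were tested on simulated data. Named genes were the 12 higher and 12 lower with the largest shared change (the smaller of both within-genotype changes, no overlap, mean of 5 FPKM or more, named symbols), the list members without overlap, and the 2 highest and 2 lowest of each list as far as space allowed. Of the 12 lower genes, 1 is not reported here. The comparison, the 19 process lists and 20 marker lists were chosen with earlier results of these data known, and Per3, Tef, Cry1, Cry2, Nr1d1, Npas2, Mhrt, Mir208b, Myh7b, Nppa, Nppb, Acta1, Col1a1, Postn, H2-K1, B2m, Nlrc5, Tap1, Psmb8, Igkj5 and the genes marked so in the results were added after their values were seen. Gene types and chromosomes came from GENCODE M21, and promoter windows from RefSeq. Alternatives were 2 scalings, 3 filters, a pseudocount of 0.1, no trend, limma-voom on recovered fragments, a replicate block, no genotype term, arrayWeights (which did not reach convergence) and leaving out each library, and, added after the data were seen, both WT-TAC libraries.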

Additional observations from a re-analysis of the deposited data

Results flagged for a closer look

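In the 4 TAC libraries, WT-TAC1 was far from the other 3 for H2-Q7 (35.34 FPKM, against 12.8 to 15.9) and for Fitm2 (25.2 FPKM, against 39.3 to 40.8). These were 2 of 52 groups of 4 examined, and chance flags about 1 in 20 groups.

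Of 214 named genes, 10 had every WT library moving one way with TAC and every Fat1 library the other way. With 2 libraries per group such a pattern also arises by chance, and its share over all genes was not counted. The opposite movement itself was not tested, and none of the 10 passed the limma interaction test over all genes (smallest adjusted p of any gene 0.27). The difference of the responses (Fat1 minus WT, log2) was -6.65 for Bmp10, an atrial gene, -6.21 for Scgb3a1, -4.56 for Krt8 and -0.96 for Tppp3, which mark airway or other epithelium, -1.74 for Cidea, a brown fat gene, -1.11 for Msln, a mesothelial gene, -1.19 for Ccn2, a matricellular gene, -0.67 for Col1a1, -0.71 for Ndufb2, a complex I gene, and 0.83 for Tnni3, cardiac troponin I.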

How the results depend on the processing

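The 20 alternatives included 1 added after the data were seen, without both WT-TAC libraries. Genes higher and lower past the cutoffs were 541 and 116 with arrayWeights, 2 (Igkj5 and Ighv7-1, which passed the filter through TAC alone) and 0 with a pseudocount of 0.1, and 1 (Klf2) and 0 without both WT-TAC libraries. Leaving out single libraries gave 0 to 51 higher and 0 to 7 lower genes: 51 and 7 without WT-TAC1, and 7 and 0 without Fat1-TAC1, the 7 being Cd79a and 6 immunoglobulin genes (Ighm, Igkc, Ighj2, Igkj5, Igkv8-30 and Igkv14-126). Every other alternative gave 0. Genes without overlap were 1647 higher without a filter, 585 higher and 657 lower with quantile normalization, 661 lower with the median of ratios, 1722 higher and 1345 lower without both WT-TAC libraries, and 1163 to 2362 higher and 233 to 424 lower over single libraries left out (2362 and 2169 higher without Fat1-TAC1 and WT-Sham2, 424 lower without WT-Sham1). The interaction gave 10 genes with 1 FPKM in at least 2 libraries, 70 without a filter, and 0 to 6221 over single libraries left out, 6221 being without WT-TAC2, where WT-TAC1 is the lone WT-TAC library and is assumed to vary like the other groups. Within WT, 135, 293 and 9 genes were called with 1 FPKM in at least 2 libraries, without a filter and at a mean of 5 FPKM, 0 with the median of ratios, quantile normalization, limma-voom or the replicate block, and 0 to 6732 over single libraries left out. Within Fat1, 1 gene was called with 1 FPKM in at least 2 libraries, and 0 to 2 over single libraries left out. The difference in mitochondrial share was -5.82 to -0.492 percentage points over single libraries left out, -0.492 being without WT-TAC1. The cause of these moves was not tested. Deviations of same-numbered libraries correlated at -0.174 to 0.028, so the replicate numbers did not pair the libraries, and the fit with the replicate block called 0 genes for TAC against Sham. Of 4256 values of the 214 named genes under the alternatives, 3990 kept direction and side of the threshold, 112 passed it in addition, and 154, of 61 genes, changed sign. Of the 99 genes the text names, 13 changed sign in 45 values, none past the cutoffs. Without both WT-TAC libraries these were Ndufb2 (-0.22), Tnni3 (0.27), Bmp10 (-3.12), Tppp3 (-0.37), Scgb3a1 (-0.65), Krt8 (-0.66), Cidea (-0.67), Msln (-0.48), Col1a1 (-0.10) and Cry1 (-0.33). With arrayWeights they were Ndufb2 (-0.13), Tnni3 (0.20), Bmp10 (-0.51), Tppp3 (-0.19), Krt8 (-0.12), Cidea (-0.08), Msln (-0.08) and Col1a1 (-0.05). With the median of ratios they were Ndufb2 (-0.03), Bmp10 (-0.01), Tppp3 (-0.10), Cidea (-0.01), Msln (-0.12) and Acta1 (-0.05), with quantile normalization Ndufb2 (-0.16), Tnni3 (0.04), Tppp3 (-0.07) and Msln (-0.18), and with a pseudocount of 0.1 Bmp10 (-0.06). Over single libraries left out, Tnni3 ranged from -0.23 to 0.10, Bmp10 from -1.09 to 2.08, Tppp3 from -0.08 to 0.22, Cidea from -0.26 to 0.60, Msln from -0.18 to 0.26, Nppa from -0.89 to 0.58, Acta1 from -0.26 to 0.48 and Ccn2 from -0.29 to 0.11.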
